A study of Homo sapiens with 60 samples.

Results

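The dose step described here is that of Guibi-tang, a multi-herb formula of Korean medicine, between its top and its middle concentration. It was taken by label as the 3 libraries treated with 500 µg/mL of the water extract, set against the 3 treated with 100 µg/mL, and makes up 6 of the 60 RNA-seq libraries of the series. All libraries come from HepG2, an established hepatocellular carcinoma line bought from ATCC, exposed for 24 h. The other libraries hold Guibi-tang at 20 µg/mL, other water extracts of herbs and formulas, and a DMSO vehicle, for which the labels and the design text give different percentages. The labels do not say that the 3 replicates of a group are separate cultures, so the p-values below measure only the spread between these samples. HepG2 stands for liver cells with limits: it is 1 tumour line, and CYP3A4 and CRP did not reach the expression filter.

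The extract was applied to cells that keep much of the hepatocyte programme, including plasma protein secretion, sterol and glucose metabolism, and enzyme induction by foreign compounds. The aryl hydrocarbon receptor (AHR) binds planar aromatic compounds and switches on CYP1A1. NRF2 is held low by KEAP1 until electrophiles or the autophagy adaptor p62 free it, and it then raises glutathione, thioredoxin and aldo-keto reductase genes. Metallothioneins bind zinc and copper, and their genes follow free zinc through the metal sensor MTF1.

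Levels are in CPM, the expected counts scaled to a common library size. A gene is called where edgeR's quasi-likelihood test gave an adjusted p (Benjamini-Hochberg) under 0.05. Totals were 23187844 to 27888838 counts at 500 µg/mL and 21679535 to 29874913 at 100 µg/mL, where a floor of 3 counts is 0.108 to 0.129 CPM at 500 µg/mL and 0.100 to 0.138 CPM at 100 µg/mL. Albumin was at 6977, 6820.1 and 6739 CPM at 500 µg/mL and 7537, 8016 and 7256 CPM at 100 µg/mL. Of the hepatocyte and HepG2 markers 10 of 10 were detected and summed to 41324 to 43951 CPM at 500 µg/mL and 37702 to 47683 CPM at 100 µg/mL. The leukocyte defining genes PTPRC and CD3E were at 0 in both groups. The leukocyte list still summed to 1315 to 1335 CPM at 500 µg/mL and 1103 to 1223 CPM at 100 µg/mL, of which lysozyme (LYZ) had 1265, 1269.7 and 1286 CPM at 500 µg/mL and 1063, 1184 and 1098 CPM at 100 µg/mL. Fibroblast markers summed to 13.3 to 14.1 CPM at 500 µg/mL and 10.8 to 15.2 CPM at 100 µg/mL, with COL1A2 and DCN at 0 in both groups.

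The libraries do not form 2 clean groups of 3. The nuclear noncoding RNA MALAT1 had 221, 217 and 444 CPM at 500 µg/mL, against 214, 499.9 and 443 CPM at 100 µg/mL. KCNQ1OT1, another nuclear RNA, had 124, 127 and 239 CPM at 500 µg/mL and 126, 206 and 241 CPM at 100 µg/mL. Replicate 1 of both doses is therefore low for both RNAs, replicate 3 of both doses is high, and replicate 2 is low at 500 µg/mL and high at 100 µg/mL. In sample order, every fitted library of the series up to replicate 2 of 500 µg/mL is low, and every later one is high. MALAT1 was at 251 to 279 CPM in vehicle and 395 to 506 CPM in Soyo-san. The class therefore also differs along the dose series from vehicle and between the formulas compared further on. The part of this class difference in the results was not tested. With the class as a covariate PFKP, APOH, CENPE, TUBA4A and IGFBP4, described further on, were not called. With replicates 1 and 3 alone 40 of the 101 genes examined singly were not called, most of which also lost their call in a fit without 1 library. Exceptions, not called there but called in every fit without 1 library, were MT1M, CYP3A5, FOSL1, CRELD2, SOD2 and STC2. The libraries at 500 µg/mL were also more alike, with a chi-square per degree of freedom of 4.42 to 7.41 between replicates, against 13.6 to 18.2 at 100 µg/mL, where 1 is counting error alone.

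At 500 µg/mL 789 of 16644 tested genes differed from 100 µg/mL, which is 4.74% of the genes tested. Of these 505 were higher (3.03%) and 284 were lower (1.71%). These shares of all tested genes are the background for each count of called list members below. Most changes were small, with a median log2 fold change of 0.30 among the higher and -0.25 among the lower genes, against -0.00044 over all tested genes. At least 2-fold changes were seen for 13 higher and 15 lower genes, and at least 1.5-fold changes for 66 and 36. The 3 libraries of each dose did not overlap for 750 of the 789, while this held for 17.0% of all tested genes. The step of 100 against 20 µg/mL, which shares the 100 µg/mL libraries, had 13 called genes (0.0781%).

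**Figure D1:**
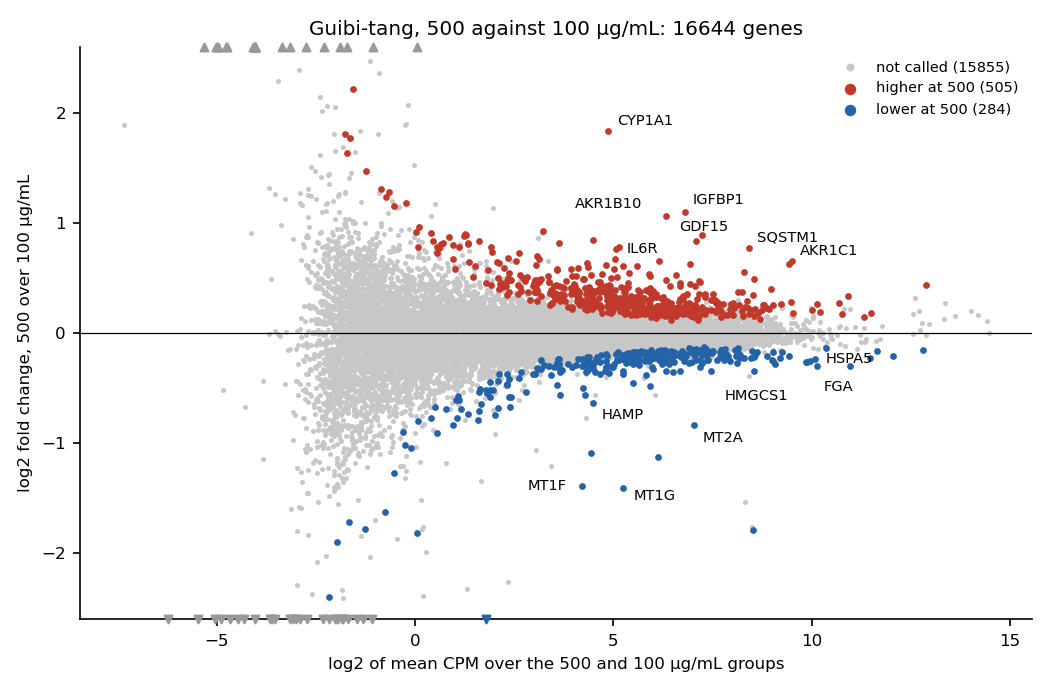
Log2 fold change of 500 over 100 µg/mL Guibi-tang against the mean level of each of 16644 tested genes, with called genes in red (505 higher at 500) and blue (284 lower at 500). CYP1A1 stands apart among the higher genes at 1.84, the metallothioneins MT1G and MT1F lie near -1.4, and most called genes lie close to 0. The isolated blue point at a high level and the low-level points past 1 in either direction include gene IDs without a symbol. Triangles at the edges stand for 53 genes beyond 2.6 in either direction, 1 of them called.

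How far the count holds depends on how the spread was estimated. With the spread taken from 57 libraries in 19 groups the count was 789, and with the 6 libraries of the step alone it was 171, of which 167 are among the 789. With the replicate number as a block the same 6 libraries gave 639 calls, of which 517 are among the 789. Where the 6 libraries alone are named in the text, the fit has no block unless stated. Where a gene is said to be not called without 1 named library, that fit had its highest adjusted p. Other fits without 1 library may lose the call as well. The split was 64.0% higher with all libraries and 76.0% higher with the 6 alone. Leaving out 1 of the 6 libraries gave 494 to 729 calls, lowest without replicate 2 of 500 µg/mL (494) and next without replicate 2 of 100 µg/mL (519). Replicates 1 and 3 alone gave 298 calls.

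Among called genes with a mean of at least 5 CPM at either dose, CYP1A1 had the largest rise. This cytochrome P450 gene (chr15:74719542-74725610, minus strand, GENCODE v29 on GRCh38) oxidises polycyclic aromatic compounds and is the usual readout of AHR. It had 46.9, 44.6 and 46.0 CPM at 500 µg/mL, against 12.8, 12.7 and 13.0 CPM at 100 µg/mL. The groups are far apart and the libraries of each dose lie close together. The log2 fold change was 1.84 ± 0.07 (SE; adjusted p 4.09e-28, edgeR's quasi-likelihood test), or 3.57-fold. Along the dose series of vehicle, 20, 100 and 500 µg/mL the mean ran 7.75, 8.47, 12.8 and 45.8 CPM. CYP1A1 was also called between 100 and 20 µg/mL, at 0.60 ± 0.08 on the log2 scale.

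The rest of the AHR list did not follow CYP1A1 to that extent. Of 9 listed targets 5 passed the filter, and 2 of them rose, CYP1A1 and NQO1, beside 3.03% of all tested genes called higher, with a median log2 fold change of 0.26 against -0.00044 over all tested genes. NQO1, a quinone reductase that NRF2 also controls, had 591, 556 and 563 CPM at 500 µg/mL, against 424, 463 and 413 CPM at 100 µg/mL, a log2 fold change of 0.40 ± 0.05. TIPARP, an ADP-ribosyltransferase that restrains AHR, had a log2 fold change of 0.05 ± 0.07 and the AHR repressor AHRR 0.09 ± 0.26, and neither was called. CYP1A2 and CYP1B1 did not pass the filter. Of the 6 genes of the receptor pathway itself, among them AHR (0.19), its partner ARNT (0.06) and the chaperones that hold it, 0 were called.

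Among genes under NRF2, in the detoxification list 7 of 13 tested members rose and 0 fell, with a median log2 fold change of 0.35. AKR1B10, an aldo-keto reductase that reduces reactive aldehydes (chr7:134527592-134541408), had 117, 105 and 104 CPM at 500 µg/mL, against 55.5, 51.7 and 49.0 CPM at 100 µg/mL. Its lowest library at 500 µg/mL was well above its highest at 100 µg/mL, and the log2 fold change was 1.06 ± 0.06 (adjusted p 6.41e-20, edgeR's quasi-likelihood test). AKR1C1 and AKR1C2, steroid and carbonyl reductases of the same superfamily, rose by 0.65 ± 0.06 and 0.56 ± 0.05 on the log2 scale. These 2 genes are near-identical in sequence, so how shared reads were split between them is uncertain. AKR1C1 had 932, 862 and 849 CPM at 500 µg/mL, against 566, 595 and 519.9 CPM at 100 µg/mL, and the groups did not overlap. The export pumps ABCC2 (0.49 ± 0.04) and ABCC3 (0.35 ± 0.05), which carry glutathione and glucuronide conjugates out of the cell, and the reductase PTGR1 (0.41 ± 0.08) also rose. These 7 calls were the same in number when any 1 library was left out, with the 6 libraries alone and with replicates 1 and 3 alone.

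**Figure D2:**
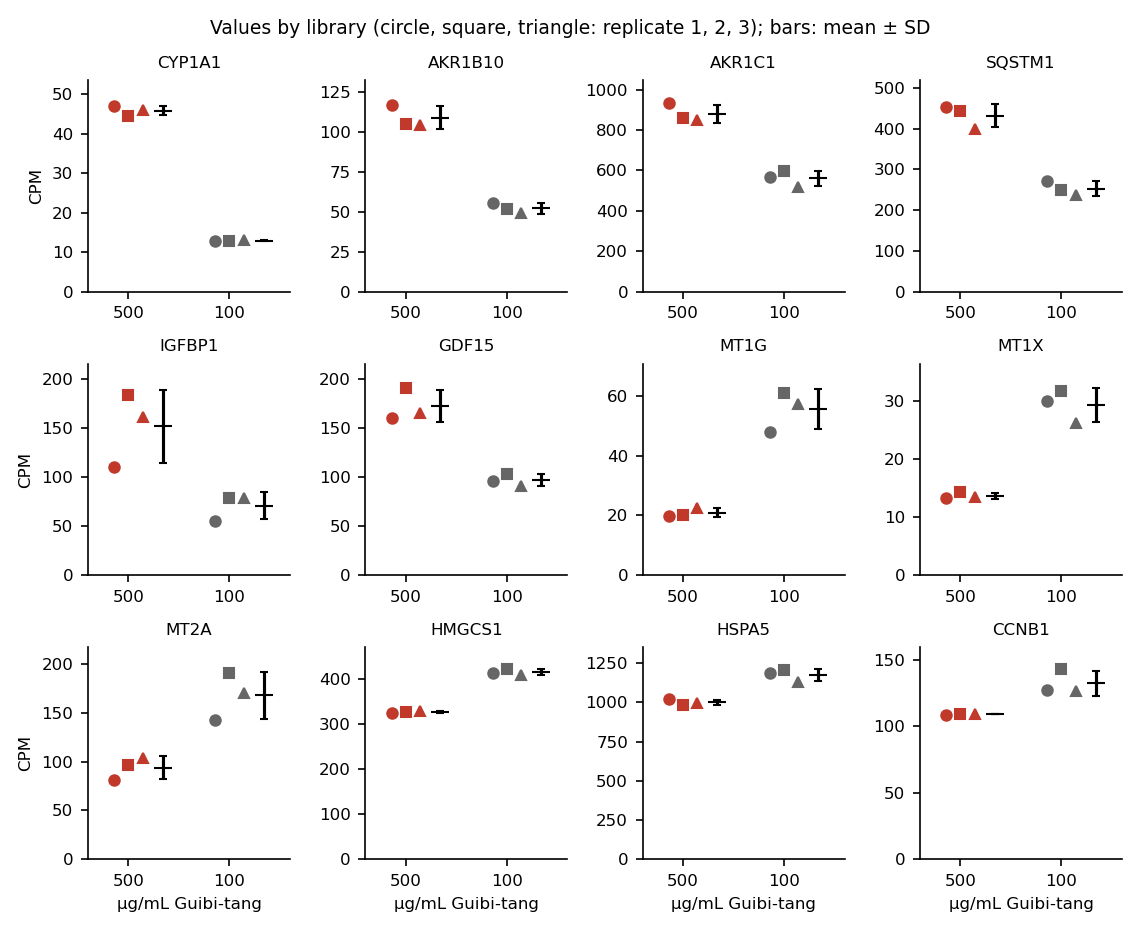
CPM of 12 genes in the 3 libraries at 500 µg/mL (left, red) and the 3 at 100 µg/mL (right, grey) of Guibi-tang, with symbols for replicates 1 to 3 and bars for the mean ± SD. The groups do not overlap in any of the 12 panels; CYP1A1 averages 45.8 against 12.8 CPM, and the gap is narrow for HSPA5 and CCNB1.

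In the glutathione and thioredoxin list 6 of 13 rose and 0 fell, with a median of 0.27. GCLM, the modifier subunit of the ligase that makes the glutathione precursor (chr1:93885205-93909456), had 43.0, 44.1 and 45.3 CPM at 500 µg/mL, against 33.9, 36.4 and 32.3 CPM at 100 µg/mL. All 3 libraries at 500 µg/mL were higher, by 0.37 ± 0.06 on the log2 scale (adjusted p 5.99e-06, edgeR's quasi-likelihood test). The catalytic subunit GCLC (0.27 ± 0.05), the sulfiredoxin SRXN1 (0.29 ± 0.05), thioredoxin reductase TXNRD1 (0.30 ± 0.05) and the glutathione peroxidase GPX2 (0.35 ± 0.07) rose as well. The cystine carrier SLC7A11 was called at 0.33 ± 0.09, but its groups overlap and the call was lost in 4 of the 6 fits that leave out 1 library (0.25 without replicate 3 of 500 µg/mL).

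Of 9 tested genes of iron handling and NADPH supply 5 rose and 1 fell. Both ferritin chains, which store iron, were higher: FTL by 0.44 ± 0.11 and FTH1 by 0.34 ± 0.09. FTL had 8623, 8973 and 8385 CPM at 500 µg/mL, against 6395, 6769 and 6014 CPM at 100 µg/mL, with no overlap. The biliverdin reductase BLVRB (0.43) and the pentose phosphate enzymes TKT (0.21) and TALDO1 (0.22) rose, while isocitrate dehydrogenase IDH1 fell by 0.23. Haem oxygenase HMOX1, the best known NRF2 target, was at 68.7, 69.1 and 59.1 CPM at 500 µg/mL and 65.8, 66.6 and 58.9 CPM at 100 µg/mL, and its log2 fold change of 0.04 ± 0.06 was not called. With replicates 1 and 3 alone 0 of these 9 were called higher, and with the 6 libraries alone 2. FTL was at 0.40 and not called without replicate 3 of 100 µg/mL. Without replicate 2 of 500 µg/mL BLVRB was at 0.39 and FTH1 at 0.29, both not called. Of the 6 fits without 1 library, FTL and BLVRB lost their call in 2 each and FTH1 in 4.

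Among the genes that control NRF2, SQSTM1 stood out. It encodes p62, which draws cargo into autophagosomes and ties up KEAP1 (chr5:179806398-179838078). Levels were 454, 443 and 399 CPM at 500 µg/mL, against 272, 250.2 and 237 CPM at 100 µg/mL, so that every library at the higher dose lay above all at the lower one. The log2 fold change was 0.77 ± 0.05 (adjusted p 1.07e-15, edgeR's quasi-likelihood test). Between 100 and 20 µg/mL SQSTM1 was called too, at 0.34 ± 0.05, and its mean over vehicle, 20, 100 and 500 µg/mL ran 210.3, 200.4, 253 and 432 CPM. The small MAF protein gene MAFF rose by 0.33 ± 0.09, a call lost in 4 of the 6 fits without 1 library (0.27 without replicate 2 of 500 µg/mL). NFE2L2, which encodes NRF2 itself (-0.10), and KEAP1 (0.09) were not called.

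The antioxidant element through which NRF2 acts was searched as TGACNNNGC on both strands in RefSeq promoters, 250 bases before to 50 bases after the start, on GRCh38.p14. It occurs in 13.6% of all 27305 promoters of the table and in 15.3% of those of tested genes, in 19.1% of those of genes called higher and in 15.2% of those of genes called lower. The windows of SQSTM1 and NQO1 hold no match, and that of GCLM holds 1. The GCLM promoter (chr1:93909381-93909680, minus strand) is shown because GCLM rose and its window carries the element, in capitals:
GCLM: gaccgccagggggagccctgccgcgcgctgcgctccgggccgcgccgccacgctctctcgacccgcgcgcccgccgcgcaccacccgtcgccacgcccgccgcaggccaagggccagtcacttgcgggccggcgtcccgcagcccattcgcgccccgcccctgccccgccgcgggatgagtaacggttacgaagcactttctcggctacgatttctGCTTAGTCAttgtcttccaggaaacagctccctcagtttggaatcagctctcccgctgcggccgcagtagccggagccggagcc

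Metallothioneins had the lowest median of the lists. All 7 of the 7 tested members were called lower, beside 1.71% of all tested genes, with a median log2 fold change of -1.12 against -0.00044 over all tested genes. The other 4 of the 11 listed, MT1B, MT1H, MT1L and MT1JP, were at 0 in both groups. Summed over the list, the level was 184 ± 15.3 CPM at 500 µg/mL and 378 ± 46.1 CPM at 100 µg/mL (SD, n = 3 each). These genes lie side by side on chromosome 16 and share sequence, so values of single members depend on how shared reads were assigned, and the sum does so less.

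MT1G (chr16:56666731-56668065) had 19.7, 20.3 and 22.5 CPM at 500 µg/mL, against 48.0, 61.0 and 57.2 CPM at 100 µg/mL, a log2 fold change of -1.41 ± 0.15 (adjusted p 1.53e-08, edgeR's quasi-likelihood test). MT1F fell by 1.39, with 9.75, 9.59 and 11.2 CPM at 500 µg/mL, against 24.1, 29.0 and 27.2 CPM at 100 µg/mL. MT2A (chr16:56608199-56609497), had 81.1, 96.9 and 104 CPM at 500 µg/mL, against 143, 190.4 and 170.5 CPM at 100 µg/mL, and fell by 0.84. In each of these genes the 3 libraries at 500 µg/mL lie below all 3 at 100 µg/mL. MT1E (-1.12), MT1X (-1.09), MT1A (-0.91) and MT1M (-1.78) showed the same separation, the last of them under 1 CPM. All 7 were called in each fit that left out 1 library, 6 with the 6 libraries alone and 5 with replicates 1 and 3 alone. The dose series differs from a steady decline: MT1G averaged 59.5, 61.2, 55.4 and 20.8 CPM in vehicle and at 20, 100 and 500 µg/mL, and 0 of the 7 were called between 100 and 20 µg/mL.

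Metal elements bound by MTF1 were searched as TGCACNC or TGCGCNC on both strands in the same RefSeq promoters. At least 1 match is found in 29.3% of all promoters and 38.3% of those of tested genes, and at least 4 in 0.59% of all and 0.79% of those of tested genes. The shares are 40.5% and 1.43% for genes called lower, and 39.0% and 1.28% for genes called higher. The window of MT1H, which was at 0 in both groups, holds 8, that of MT2A holds 8 and that of MT1X holds 4, and the windows of MT2A and MT1X also hold 1 antioxidant element each. These 2 are shown with the metal elements in capitals, since these genes fell together (MT2A chr16:56608334-56608633 and MT1X chr16:56682220-56682519, both plus strand, GRCh38.p14):
MT2A: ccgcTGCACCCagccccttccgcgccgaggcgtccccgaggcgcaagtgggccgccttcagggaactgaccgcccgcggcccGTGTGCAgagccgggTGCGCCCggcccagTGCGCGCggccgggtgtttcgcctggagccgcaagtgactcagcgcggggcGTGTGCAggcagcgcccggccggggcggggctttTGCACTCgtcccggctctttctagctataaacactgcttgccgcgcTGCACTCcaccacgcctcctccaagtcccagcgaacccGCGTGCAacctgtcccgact
MT1X: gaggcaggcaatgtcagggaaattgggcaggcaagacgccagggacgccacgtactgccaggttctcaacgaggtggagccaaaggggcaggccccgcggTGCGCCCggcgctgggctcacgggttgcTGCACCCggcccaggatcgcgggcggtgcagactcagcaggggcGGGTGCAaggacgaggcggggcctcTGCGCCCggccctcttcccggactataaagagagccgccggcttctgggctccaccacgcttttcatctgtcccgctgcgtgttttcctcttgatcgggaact
A match is a string of letters and no measurement of binding, and MTF1 mRNA had a log2 fold change of -0.04 ± 0.08 that was not called.

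Other genes that move zinc changed in both directions, 2 of 9 higher and 2 lower. SLC30A1, the zinc exporter that MTF1 also controls, fell by 0.29, with 79.5, 73.2 and 76.2 CPM at 500 µg/mL, against 94.7, 91.6 and 92.5 CPM at 100 µg/mL. SLC39A10, a zinc importer of the plasma membrane, rose by 0.59 ± 0.10, with 18.5, 20.5 and 22.6 CPM at 500 µg/mL, against 13.6, 13.8 and 13.6 CPM at 100 µg/mL. The groups are separate in both genes. The importer SLC39A4 rose by 0.31 ± 0.07 and the exporter SLC30A10 fell by 0.31. Without replicate 2 of 500 µg/mL SLC39A4 was at 0.24, and without replicate 1 of 500 µg/mL SLC30A10 was at -0.27, and these were then not called.

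**Figure D3:**
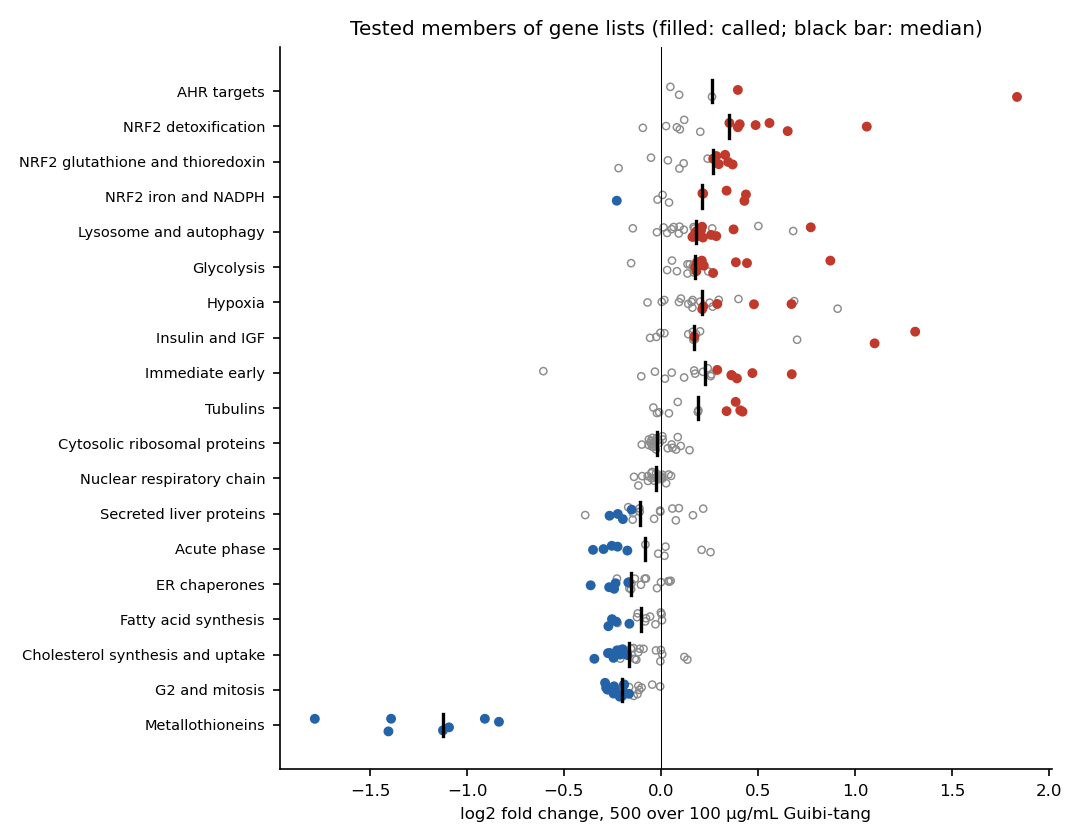
Log2 fold change of 500 over 100 µg/mL for the tested members of 19 gene lists, 1 point per gene, filled red or blue where called and open where not, with a black bar at the list median. Metallothioneins lie lowest (median -1.12), NRF2 detoxification genes lie high (0.35), G2 and mitosis genes lie just below 0 (-0.20), and ribosomal proteins and the nuclear respiratory chain lie around 0 with no call.

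Of 28 tested lysosome and autophagy genes 11 rose and 0 fell, beside 3.03% of all tested genes called higher, with a median log2 fold change of 0.18, and 26 of the 28 estimates were positive. After SQSTM1, the largest were GABARAPL1 (0.37 ± 0.08), an ATG8 family protein of the autophagosome membrane, FLCN (0.28 ± 0.08), which regulates TFEB and mTORC1 at the lysosome, and the aspartic protease CTSD (0.26 ± 0.06). GABARAPL1 had 9.49, 8.70 and 10.3 CPM at 500 µg/mL, against 7.02, 7.87 and 7.12 CPM at 100 µg/mL, and CTSD had 501, 501 and 449 CPM at 500 µg/mL, against 416, 417 and 381 CPM at 100 µg/mL. The doses do not overlap in either gene, though the gaps are narrow. Cathepsin B (CTSB, 0.21), the phosphoinositide binder WIPI1 (0.22), the hexosaminidase subunit HEXA (0.18), the proton pump subunit ATP6V0D1 (0.18) and the membrane protein LAMP1 (0.16) were also called. TFEB mRNA, for the factor that drives this programme, was at -0.15 ± 0.08 and not called. Leaving out 1 library left 5 to 13 members called, replicates 1 and 3 alone left 8, and the 6 libraries alone left 1. FLCN was not called in 3 of the 6 fits without 1 library (0.21 without replicate 1 of 500 µg/mL).

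The box TCACGTG, a form of the element bound by TFEB and its relatives, is found in 3.8% of all RefSeq promoters and 5.9% of those of tested genes, in 9.2% of those of genes called higher and in 3.3% of those of genes called lower. At least 4 matches are found in 0.1% of all promoters. Among called members of the list, the windows of GABARAPL1, FLCN and WIPI1 hold 0 matches, and those of CTSD and ATP6V0D1 hold 1 box each. LAMP1 has 8 matches on both strands, which make up 6 boxes that do not overlap, since TCACGTGA is read once on each strand. Its promoter (chr13:113296989-113297288, plus strand, GRCh38.p14) is shown with the boxes in capitals, beside a rise in LAMP1 of only 0.16 ± 0.05 in which the groups overlap:
LAMP1: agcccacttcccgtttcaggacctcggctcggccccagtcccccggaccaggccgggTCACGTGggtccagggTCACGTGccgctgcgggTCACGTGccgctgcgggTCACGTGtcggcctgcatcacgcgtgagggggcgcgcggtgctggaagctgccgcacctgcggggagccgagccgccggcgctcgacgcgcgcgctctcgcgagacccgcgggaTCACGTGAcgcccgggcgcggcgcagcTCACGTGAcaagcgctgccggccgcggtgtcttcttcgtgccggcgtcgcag

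Of 21 glycolysis genes, which break down sugar, 9 rose, 0 fell and 12 were not called, beside 3.03% of all tested genes called higher. The median log2 fold change was 0.18, and for the same step it was 0.21 in Saengmaek-san and 0.19 in Soyo-san, 2 other formulas. The largest were hexokinase HK1 (0.87 ± 0.19), at under 3 CPM, phosphofructokinase PFKP (0.44 ± 0.13) and the enolase ENO2 (0.39 ± 0.06). ENO2 had 68.7, 67.2 and 65.0 CPM at 500 µg/mL, against 51.8, 53.6 and 48.4 CPM at 100 µg/mL, with every library of the higher dose above those of the lower. The aldolase ALDOA rose by 0.27 ± 0.05 and the dehydrogenase GAPDH by 0.19 ± 0.05. With 1 library left out 5 to 8 of the 21 were called, with replicates 1 and 3 alone 5, and with the 6 libraries alone 1. PFKP was not called in 4 of the 6 fits without 1 library (0.32 without replicate 2 of 500 µg/mL).

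Of 21 hypoxia genes 5 rose and 0 fell (median 0.21). For the same step the median was 0.25 in Saengmaek-san and 0.19 in Soyo-san. BHLHE40, a transcriptional repressor that hypoxia and other stimuli induce, had 38.0, 43.5 and 39.3 CPM at 500 µg/mL, against 25.8, 25.2 and 24.7 CPM at 100 µg/mL, a rise of 0.67 ± 0.10. NDRG1, a stress-responsive growth regulator, rose by 0.48 ± 0.11, and INSIG2, which holds back sterol factor processing in the ER, by 0.29 ± 0.07. Without replicate 1 of 100 µg/mL they were at 0.38 and 0.21 and not called. Carbonic anhydrase CA9, a tight hypoxia marker, had 6.21, 15.6 and 13.7 CPM at 500 µg/mL, against 3.06, 8.72 and 7.72 CPM at 100 µg/mL. Replicate 1 was low at both doses and the groups overlap, though within each replicate number the library at 500 µg/mL was the higher. The log2 fold change of CA9, 0.91 ± 0.38, was not called in the main fit, which does not pair the replicates. VEGFA was at 0.09 ± 0.05 and not called. The class covariate gave 8 called members, and the 6 libraries alone or replicates 1 and 3 alone gave 1.

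A few genes that insulin normally holds down in liver cells were called, with libraries that spread widely. IGFBP1, a secreted binding protein of insulin-like growth factors (chr7:45888357-45893668), had 110.2, 183 and 161 CPM at 500 µg/mL, against 55.1, 78.6 and 79.1 CPM at 100 µg/mL. Replicate 1 was the lowest at both doses, yet the groups did not overlap. The log2 fold change was 1.10 ± 0.22 (adjusted p 0.000799, edgeR's quasi-likelihood test), and IGFBP1 was not called with the 6 libraries alone. G6PC1, the glucose-6-phosphatase that releases glucose, had 3.37, 5.77 and 5.92 CPM at 500 µg/mL, against 2.45, 3.64 and 3.72 CPM at 100 µg/mL, a log2 fold change of 0.64 ± 0.19 with overlapping groups. It was not called in 3 of the 6 fits without 1 library (0.46 without replicate 1 of 100 µg/mL). Its coactivator PPARGC1A rose by 0.36 ± 0.08 (0.30 and not called without replicate 2 of 100 µg/mL), while PCK1, the gateway enzyme of gluconeogenesis, was at -0.17 ± 0.12 and not called. In all, 3 of 13 gluconeogenesis genes rose and 0 fell, with a median of 0.01 and 5 negative estimates, and 0 were called with the 6 libraries alone. The dose series for IGFBP1 was not steady: 26.5, 83.6, 70.9 and 152 CPM in vehicle and at 20, 100 and 500 µg/mL. DEPP1, an autophagy regulator that FOXO factors induce, rose by 0.78 ± 0.14, with 36.5, 48.4 and 49.6 CPM at 500 µg/mL, against 20.8, 27.0 and 30.9 CPM at 100 µg/mL. DEPP1 was not called with the 6 libraries alone either. With the replicate number as a block in those 6 libraries IGFBP1, G6PC1, PPARGC1A and DEPP1 were called.

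**Figure D4:**
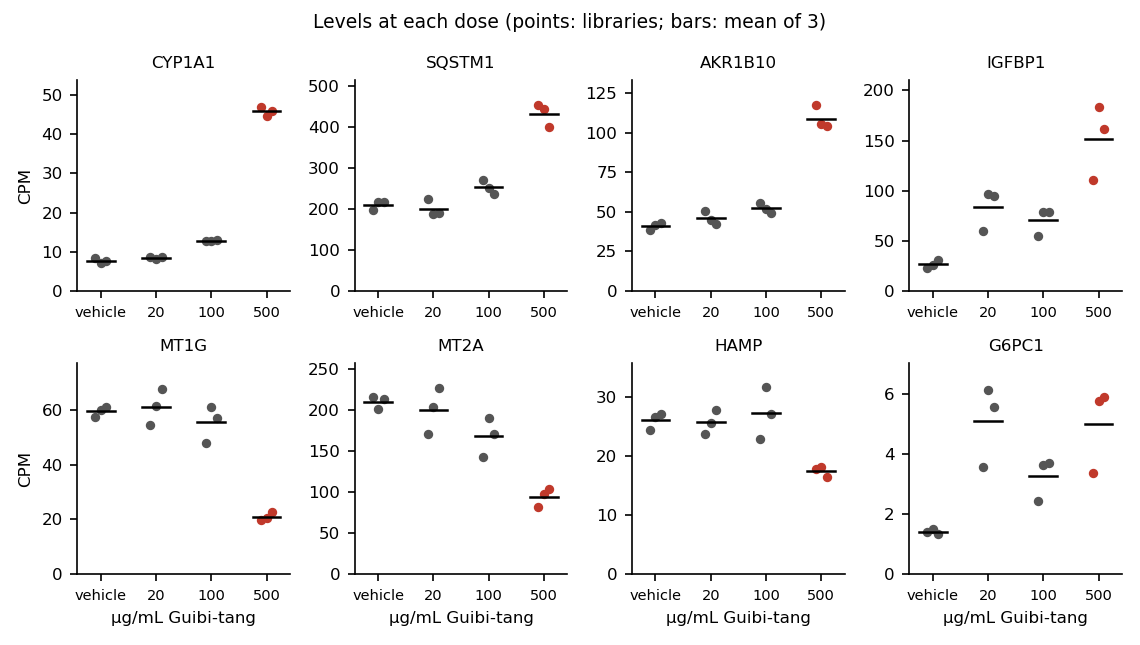
CPM in each library of vehicle and of Guibi-tang at 20, 100 and 500 µg/mL for 8 genes, with bars at the mean of 3. CYP1A1, SQSTM1 and AKR1B10 climb at the last step, MT1G, MT2A and HAMP drop there, and IGFBP1 and G6PC1 lie above vehicle already at 20 µg/mL (83.6 against 26.5 CPM for IGFBP1).

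Of 26 tested genes of cholesterol synthesis and uptake 0 rose and 10 fell, beside 1.71% of all tested genes called lower. The median log2 fold change was -0.16, with 23 negative estimates. For the same step the median was -0.20 in Saengmaek-san and -0.28 in Soyo-san. HMGCS1, which makes HMG-CoA (chr5:43289395-43313512), had 326, 327 and 329.8 CPM at 500 µg/mL, against 414, 423 and 409.5 CPM at 100 µg/mL. The libraries within each dose lie close together and the doses do not overlap, with a log2 fold change of -0.34 ± 0.05 (adjusted p 9.32e-06, edgeR's quasi-likelihood test). Squalene epoxidase SQLE was at -0.23 ± 0.04 and the sterol reductase TM7SF2 at -0.26 ± 0.08. TM7SF2 was not called in 4 of the 6 fits without 1 library (-0.22 without replicate 3 of 500 µg/mL). INSIG1, which holds back sterol factor processing, was not called at 0.14. The count was 16 with the class covariate, 4 to 14 with 1 library left out, 3 with replicates 1 and 3 alone and 1 with the 6 libraries alone. The sterol element was searched as TCACNCCAC in the same RefSeq promoters. It is in 1.1% of those of tested genes, 2.3% of those of genes called higher and 0.0% of those of genes called lower. The HMGCS1 window holds 0 matches.

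In fatty acid synthesis 4 of 14 fell and 0 rose: the acyltransferase GPAM (-0.27 ± 0.05), the desaturases FADS1 (-0.25 ± 0.05) and FADS2 (-0.23 ± 0.06), and the acetyl-CoA synthetase ACSS2 (-0.16). The central enzymes FASN (-0.08), ACACA (-0.12) and SCD (-0.06) were not called. The list median was -0.10, and for the same step -0.14 in Saengmaek-san and -0.25 in Soyo-san. None of the 4 was called with the 6 libraries alone, and FADS2 was not called without replicate 1 of 100 µg/mL (-0.18). On the oxidation side CPT1A, which admits fatty acids to mitochondria, rose by 0.52 ± 0.07, with 67.6, 73.6 and 72.2 CPM at 500 µg/mL, against 50.2, 49.7 and 49.3 CPM at 100 µg/mL. The lipid droplet coat gene PLIN2 rose by 0.35 ± 0.05 and the liver transcription factor gene CREB3L3 by 0.36 ± 0.11. CREB3L3 was not called in 3 of the 6 fits without 1 library (0.26 without replicate 2 of 100 µg/mL). The peroxisomal enzyme EHHADH fell by 0.24. In all 3 of 16 members of that list rose and 1 fell, and the median was 0.04.

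Of 19 tested endoplasmic reticulum chaperone genes 0 rose, 6 fell and 13 were not called, with a median log2 fold change of -0.15. HSPA5, the BiP chaperone and main sensor partner of the unfolded protein response (chr9:125234853-125241330), had 1020.0, 987 and 995 CPM at 500 µg/mL, against 1192, 1208 and 1132 CPM at 100 µg/mL. The doses do not overlap, and the fold change was -0.23 ± 0.04 (adjusted p 2.79e-05, edgeR's quasi-likelihood test). HSP90B1, the ER form of HSP90, was at -0.27 ± 0.04, the disulfide isomerase PDIA4 at -0.24 ± 0.04 and the ER protein CRELD2 at -0.36 ± 0.08. PDIA6 (-0.17) and HYOU1 (-0.17) completed the 6, and XBP1 (-0.00) and HERPUD1 (0.04) were not called. With the class covariate 9 members were called, with replicates 1 and 3 alone 4 and with the 6 libraries alone 1. ERP27, an ER protein of the disulfide isomerase family that is not on the list, was among the largest falls (-0.74 ± 0.12), with 2.58, 3.20 and 3.27 CPM at 500 µg/mL, against 4.94, 5.44 and 4.91 CPM at 100 µg/mL.

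Other stress lists held few calls, some in a share near that of all tested genes (3.03% higher, 1.71% lower). In the ATF4 list 3 of 22 rose, led by NUPR1, a small chromatin protein induced by stress (0.52 ± 0.11), with 19.1, 18.2 and 17.6 CPM at 500 µg/mL, against 11.8, 14.2 and 12.5 CPM at 100 µg/mL. ATF4 itself (0.03), ASNS (0.01) and TRIB3 (0.12) were not called. Of 20 p53 targets only GDF15 rose and 0 fell, and CDKN1A was at 0.17 ± 0.06 and not called. GDF15, a secreted stress cytokine (chr19:18374731-18389176), had 161, 191 and 165 CPM at 500 µg/mL, against 96.3, 103 and 90.9 CPM at 100 µg/mL, a rise of 0.83 ± 0.09 with separate groups. Of 16 heat shock genes only DNAJA1 was called, at -0.19 ± 0.04 (-0.16 and not called without replicate 2 of 100 µg/mL). Of 17 proteasome genes only PSMD11 was called, at 0.12, a call lost in 5 of the 6 fits that leave out 1 library (0.09 without replicate 3 of 100 µg/mL).

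Of 25 tested G2 and mitosis genes 14 fell and 0 rose, and all 25 estimates were negative, with a median of -0.20. Cyclin B1 (CCNB1), which drives entry into mitosis, had 109, 109 and 109 CPM at 500 µg/mL, against 127, 143 and 126 CPM at 100 µg/mL, a log2 fold change of -0.28 ± 0.05 with no overlap. Topoisomerase TOP2A (-0.28 ± 0.05), survivin BIRC5 (-0.24 ± 0.04) and the kinetochore motor CENPE (-0.29 ± 0.09) fell too. CENPE was not called in 4 of the 6 fits without 1 library (-0.22 without replicate 3 of 100 µg/mL). MKI67, the proliferation marker, had 477, 497 and 547 CPM at 500 µg/mL, against 551, 374 and 600.5 CPM at 100 µg/mL, with replicate 2 of 100 µg/mL far below the other 5, and was not called. In bulk RNA fewer cells in mitosis and less of these mRNAs per cell cannot be told apart. In the list for G1-S and DNA replication 24 of 25 estimates were negative, with a median of -0.10. The 1 called was thymidylate synthase TYMS (-0.20 ± 0.05). TYMS was not called in 3 of the 6 fits without 1 library (-0.14 without replicate 2 of 100 µg/mL). With the class covariate 7 of that list were called lower. With 1 library left out 9 to 14 of the G2 and mitosis genes were called, with replicates 1 and 3 alone 10, and with the 6 libraries alone 2.

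Plasma proteins made by the liver were taken in 2 lists. Among 11 acute phase genes 0 rose and 5 fell. The fibrinogen chains FGA (-0.30 ± 0.04), FGB (-0.22 ± 0.05) and FGG (-0.25 ± 0.05) fell together, and so did haemopexin HPX (-0.35 ± 0.09) and haptoglobin HP (-0.17). FGA had 1035, 995 and 1018 CPM at 500 µg/mL, against 1282, 1261 and 1199 CPM at 100 µg/mL, with no overlap. Of 18 other secreted liver proteins 4 fell and 0 rose: the lipid-binding APOH (-0.27), alpha-fetoprotein AFP (-0.22), antithrombin SERPINC1 (-0.20) and albumin ALB (-0.15). The 4 were fragile, with 0 to 3 called when 1 library was left out. Without replicate 2 of 100 µg/mL APOH was at -0.20, AFP at -0.19 and ALB at -0.11. SERPINC1 was at -0.16 without replicate 1 of 500 µg/mL and HPX at -0.28 without replicate 2 of 500 µg/mL. None of these was then called. Of the 6 fits without 1 library, APOH and ALB lost their call in 5 each, HPX in 4, SERPINC1 in 3 and AFP in 1.

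IL6R, the receptor through which interleukin 6 reaches hepatocytes, was among the largest rises. It had 42.7, 41.6 and 43.3 CPM at 500 µg/mL, against 27.3, 22.7 and 24.7 CPM at 100 µg/mL, a log2 fold change of 0.77 ± 0.06 (adjusted p 2.08e-13, edgeR's quasi-likelihood test). The 3 libraries at the higher dose lie close together and far above the others.

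Hepcidin, the liver hormone that limits iron export, and its regulator fell. HAMP, the hepcidin gene (chr19:35280716-35285143), had 17.7, 18.2 and 16.4 CPM at 500 µg/mL, against 22.8, 31.7 and 27.1 CPM at 100 µg/mL, a log2 fold change of -0.63 ± 0.12. TMPRSS6, the protease that restrains hepcidin signalling, had 3.11, 3.64 and 3.09 CPM at 500 µg/mL, against 5.58, 5.40 and 4.83 CPM at 100 µg/mL, a fold change of -0.68 ± 0.12. Neither gene overlaps between the doses. The BMP target ID1 was at -0.31 ± 0.08 and the iron exporter SLC40A1 at 0.15 ± 0.04, both called. Together with FTL and FTH1 these made 3 higher and 3 lower of 13 iron genes. The transferrin receptor TFRC, at 0.03, was not called.

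Further liver genes were among the largest falls. ADH4, an alcohol dehydrogenase, had 14.9, 16.5 and 16.0 CPM at 500 µg/mL, against 23.0, 25.3 and 21.8 CPM at 100 µg/mL, a log2 fold change of -0.56 ± 0.07 with separate groups. The bile acid 5-beta-reductase AKR1D1 was at -0.56 ± 0.08, the bile acid receptor NR1H4 at -0.34 ± 0.06, the acyl-CoA synthetase ACSM2A at -0.59 ± 0.12 and the organic anion carrier SLC22A7 at -0.58 ± 0.14 (-0.48 and not called without replicate 3 of 500 µg/mL). NFE2, a transcription factor best known from blood cells, was at -0.67 ± 0.12. NR0B2, a corepressor induced by NR1H4, rose by 0.25 ± 0.07. NR0B2 was not called in 3 of the 6 fits without 1 library (0.20 without replicate 2 of 500 µg/mL). CYP7A1, the first enzyme of bile acid synthesis, was at 0.06 ± 0.31 and not called. Of 7 tested PXR and CAR targets 3 rose and 0 fell. The cytochrome CYP3A5 rose by 0.55 ± 0.12, the haem synthesis enzyme ALAS1 by 0.19 and the sulfotransferase SULT2A1 by 0.18. ALAS1 was at 0.15 without replicate 3 of 100 µg/mL and SULT2A1 at 0.14 without replicate 1 of 500 µg/mL, both not called. Each lost its call in 4 of the 6 fits without 1 library. Of 13 hepatocyte transcription factors 1 rose and 1 fell, beside 3.03% and 1.71% of all tested genes, and HNF4A (0.09) was not called.

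Several genes of the cell surface and of rapid responses rose. ICAM1, a leukocyte adhesion molecule, had 163, 169 and 171 CPM at 500 µg/mL, against 126, 111 and 127 CPM at 100 µg/mL, a rise of 0.46 ± 0.05. In the immediate early list 6 of 18 rose and 0 fell, with a median of 0.23, among them the mRNA-destabilising protein ZFP36 (0.67 ± 0.11), the AP-1 member FOSL1 (0.47 ± 0.10) and IER3 (0.39 ± 0.11). IER3 was not called in 3 of the 6 fits without 1 library (0.33 without replicate 2 of 500 µg/mL). FOS (0.24) and MYC (0.12) were not called. Of 15 YAP and actin targets 4 rose and 0 fell, among them the muscle ankyrin protein ANKRD1 (0.44 ± 0.10), the actin-binding TAGLN (0.37 ± 0.09; 0.31 and not called without replicate 3 of 100 µg/mL) and CCN1 (0.35), while CCN2 (0.04) was not called. The EGFR ligand AREG rose by 0.65 ± 0.12, the single call among 14 EGFR and MAPK genes. Of 10 NF-kB genes 2 rose, ICAM1 and SOD2 (0.16), and NFKBIA (-0.03) was not called. With replicates 1 and 3 alone 2 immediate early genes were called.

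Tubulin isotypes differed from each other. TUBB2A (0.34 ± 0.06), TUBB2B (0.41 ± 0.10), TUBB6 (0.38 ± 0.07) and TUBA4A (0.42 ± 0.13) rose, 4 of 11, while TUBA1B (-0.01), TUBB (-0.02) and TUBB4B (-0.04) were not called. TUBB2A and TUBB2B are near-identical, so their shares are uncertain. TUBB6 had 26.1, 26.6 and 25.3 CPM at 500 µg/mL, against 22.0, 19.8 and 17.8 CPM at 100 µg/mL, with no overlap. TUBA4A was at 0.36 without replicate 2 of 500 µg/mL and TUBB2B at 0.34 without replicate 1 of 500 µg/mL, both not called. TUBA4A lost its call in 4 of the 6 fits without 1 library, and TUBB2B in 1.

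The remaining large rises were of diverse genes. SH2D5, an adaptor protein, had 13.7, 12.5 and 10.5 CPM at 500 µg/mL, against 6.89, 6.74 and 5.70 CPM at 100 µg/mL, a rise of 0.92 ± 0.10. MYO15B, a myosin XV homologue, rose by 0.82 ± 0.09 and the pannexin PANX2 by 0.70 ± 0.12. In each of these the 3 libraries at 500 µg/mL lay above all 3 at 100 µg/mL. IGFBP3 had the largest log2 fold change of the insulin and IGF list, 1.31 ± 0.38, at under 1 CPM, and was at 0.90 and not called without replicate 1 of 100 µg/mL. Also in that list IGFBP4 rose by 0.17, to make 3 of 14 (0.14 and not called without replicate 3 of 100 µg/mL). Of the 6 fits without 1 library, IGFBP3 lost its call in 4 and IGFBP4 in 5. Among the leukocyte markers CD68, a lysosomal membrane protein, was at 0.31 and LYZ at 0.19, both called with all libraries. They were at 0.27 without replicate 2 of 500 µg/mL and 0.16 without replicate 1 of 100 µg/mL, and not called. CD68 lost its call in 3 of the 6 fits without 1 library, and LYZ in 5. The interferon-stimulated gene IFIT1 fell by 0.69, at under 3 CPM, the single call among 12 of its list (-0.63 and not called without replicate 2 of 500 µg/mL). Of 12 selenoprotein genes 3 rose: TXNRD1, GPX2 and the deiodinase DIO1 (0.24). DIO1 was not called in 3 of the 6 fits without 1 library (0.17 without replicate 3 of 100 µg/mL).

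Several lists held no call by edgeR's quasi-likelihood test on the filtered genes. These were 25 cytosolic ribosomal protein genes (median -0.02), 22 nuclear genes of the respiratory chain (-0.02), 13 mitochondrially encoded mRNAs (0.13), 13 clock genes (-0.01) and 9 nuclear noncoding RNAs (-0.19). For the mitochondrial mRNAs 12 of 13 estimates were positive, and their share of all counts was 12.3 to 13.6% at 500 µg/mL and 11.3 to 12.9% at 100 µg/mL, which overlap. With no filter 4 of the mitochondrial mRNAs were called higher, and 3 of the nuclear noncoding RNAs lower and 1 higher. With the class covariate 1 nuclear noncoding RNA was called higher and 1 nuclear respiratory chain gene lower. The median of the nuclear noncoding RNAs was -0.03 with the class covariate and -0.0013 with replicates 1 and 3 alone. The class was set by MALAT1, a member of that list. Genes without a call in these lists may still have changed by a small amount that was missed.

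The step was then compared with the same step in Saengmaek-san and Soyo-san, 2 other formulas given at the same doses, by testing the difference of the log2 fold changes. Of 16644 genes 58 differed from Saengmaek-san (0.348%), 49 with the larger value in Guibi-tang and 9 with the smaller. From Soyo-san 39 differed (0.234%), 21 and 18. With only the groups compared these counts were 4 and 19, and 22 and 35 with replicates 1 and 3 of Guibi-tang alone.

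CYP1A1 differed in its response between formulas. Its step was 1.84 ± 0.07 in Guibi-tang, against 0.72 ± 0.08 in Saengmaek-san and 2.16 ± 0.06 in Soyo-san. It differed from Saengmaek-san by 1.12 ± 0.10 (adjusted p 1.59e-10, edgeR's quasi-likelihood test). The difference from Soyo-san was -0.32 ± 0.09 and was not called. The levels reached were 45.8 ± 1.18 CPM at 500 µg/mL of Guibi-tang, 12.4 ± 0.592 CPM for Saengmaek-san and 98.1 ± 0.840 CPM for Soyo-san (SD, n = 3 each).

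HSPA5 fell in the Guibi-tang step (-0.23 ± 0.04) and had a log2 fold change of 0.04 ± 0.04 in Saengmaek-san. The difference of -0.28 was called. In Soyo-san HSPA5 was at -0.01 ± 0.04, and the difference of -0.22 was not called (adjusted p 0.0552, edgeR's quasi-likelihood test). Medians over the ER chaperone list were -0.15 in Guibi-tang, 0.01 in Saengmaek-san and 0.01 in Soyo-san. UAP1L1, a homologue of a nucleotide-sugar enzyme, had 58.6 ± 2.49 CPM at 500 µg/mL of Guibi-tang and 38.4 ± 1.35 CPM at 100 µg/mL, a step of 0.61 ± 0.07. Its step was -0.07 ± 0.07 in Saengmaek-san and -0.26 ± 0.07 in Soyo-san, and it differed from both (0.68 and 0.87). The deiodinase DIO1 likewise was at 0.24 in Guibi-tang, -0.26 in Saengmaek-san and -0.40 in Soyo-san, and both differences were called (0.50 and 0.64).

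For HAMP the step was -0.63 ± 0.12 in Guibi-tang, -0.79 ± 0.12 in Saengmaek-san and -2.16 ± 0.16 in Soyo-san, where the mean reached 4.19 ± 0.0481 CPM. The difference from Soyo-san, 1.52, was called. The metallothionein medians were -1.12 in Guibi-tang, -1.66 in Saengmaek-san and -1.41 in Soyo-san. For MT1G the differences were 0.84 ± 0.22 from Saengmaek-san (adjusted p 0.0884) and 0.51 ± 0.22 from Soyo-san (adjusted p 0.612), not called by edgeR's quasi-likelihood test.

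**Figure D5:**
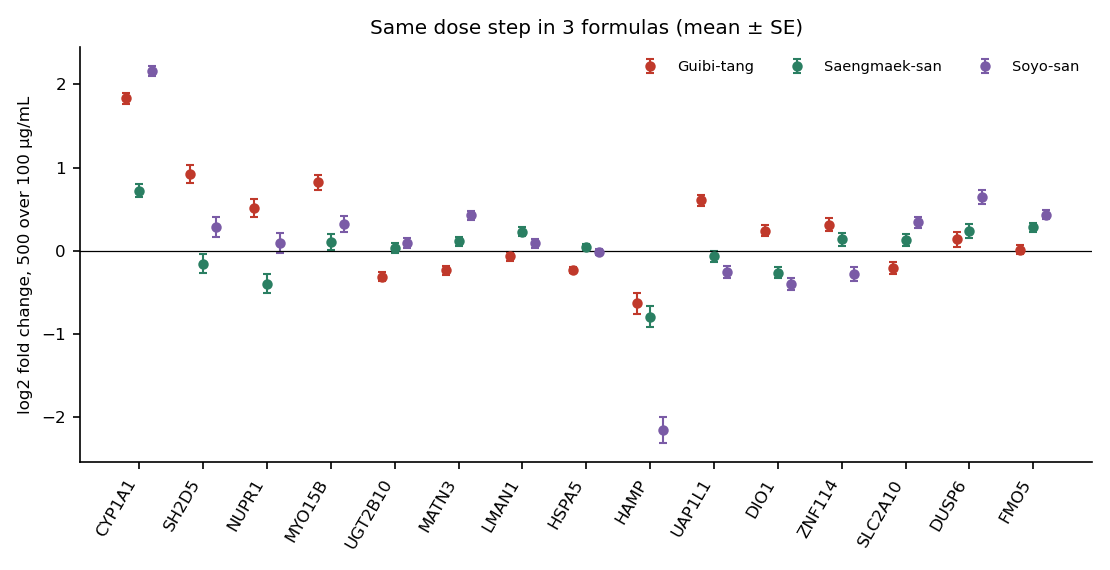
Log2 fold change of 500 over 100 µg/mL (± SE) in Guibi-tang, Saengmaek-san and Soyo-san for 15 genes, the 4 largest called differences in each direction from each of the other formulas among genes of at least 5 CPM in any group compared. CYP1A1 reaches 1.84, 0.72 and 2.16 in the 3 formulas, and HAMP falls furthest in Soyo-san (-2.16). UAP1L1 lies above 0 in Guibi-tang, near 0 in Saengmaek-san (-0.07, not called) and below 0 in Soyo-san (-0.26).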

How the data were processed

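Total RNA of HepG2 cells was sequenced as directional mRNA libraries with paired-end reads on an MGI instrument, per the labels' protocols. The deposited table holds expected counts per gene, made by the authors with RSEM 1.3.3 from reads trimmed with Trim Galore 0.6.5 and aligned to GRCh38 with STAR 2.7.3a, after FastQC 0.11.9, per the submitters' processing notes. The annotation, the strand setting and the handling of shared reads are not stated in the labels or notes, so genes that share or overlap sequence carry uncertain values. The table has 60675 genes and 60 libraries with totals of 20446542 to 32386486, and 0.521% of the counts lie in genes without a symbol.

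Expected counts were rounded and analysed in R 4.3.3. Genes were kept by filterByExpr of edgeR 4.0.16 (minimum count 10), scaled by TMM and fitted with the quasi-likelihood model over 57 libraries in 19 groups, which excludes groups of 1 library. Adjusted p-values are Benjamini-Hochberg over 16644 genes, and SE is the absolute log2 fold change over the square root of F. Differences between formulas are contrasts of that fit. The alternatives were RLE scaling, no filter, DESeq2 1.42.0, a replicate block, a class covariate, the compared groups alone and leaving out each library. A fit with replicates 1 and 3 of Guibi-tang was added after seeing the data. The fit was also run on simulated counts, in which only genes of higher count were changed. It recovered 86.6% of 67 genes changed 1.3-fold, with 9 false calls. The simulated libraries were independent, without the MALAT1 class or shared replicate deviations, so the simulation does not cover these.

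Named by rule were the 12 largest called changes in each direction at 5 CPM or more on average in 1 of the groups and no overlap of the libraries, up to 3 called members of each list by size, the 4 largest called differences from each other formula in each direction, and CYP1A1, AKR1B10, MT1G, IGFBP1, HMOX1 and ALB. Some genes under this rule are not reported here. Further list members were named after their values were seen. The genes, lists and comparisons were chosen with earlier results of these data known. Symbols come from a table of gene names and GENCODE v29, positions from GENCODE v29. Floors cover counting error only.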

Additional observations from a re-analysis of the deposited data

Results flagged for a closer look

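The following genes differed between the step of 500 against 100 µg/mL of Guibi-tang and the same step of another formula, by edgeR's quasi-likelihood test of the difference itself. Values are differences of log2 fold changes, Guibi-tang minus the other formula, and a positive value means the larger change with sign in Guibi-tang.

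Against Saengmaek-san the difference was 1.12 for CYP1A1, an aryl hydrocarbon receptor target. It was 1.08 for SH2D5, 0.91 for the stress protein gene NUPR1 and 0.72 for MYO15B. NUPR1 had a step of 0.52 in Guibi-tang and -0.40 in Saengmaek-san. On the negative side it was -0.34 for the glucuronosyltransferase UGT2B10 and -0.34 for MATN3, a matrix protein gene. It was -0.30 for LMAN1, a cargo receptor of the secretory pathway, and -0.28 for the chaperone HSPA5. LMAN1 was not called in Guibi-tang (-0.07) and had a step of 0.23 in Saengmaek-san.

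Against Soyo-san the difference was 1.52 for the hepcidin gene HAMP, which was lower at 500 µg/mL in both formulas. It was 0.87 for UAP1L1, 0.64 for the deiodinase DIO1 and 0.60 for the zinc finger gene ZNF114, which had steps of 0.31 in Guibi-tang and -0.28 in Soyo-san. It was -0.66 for MATN3, with -0.23 in Guibi-tang and 0.42 in Soyo-san. It was -0.55 for the glucose transporter SLC2A10, -0.51 for the MAP kinase phosphatase DUSP6 and -0.42 for the monooxygenase FMO5, none of which was called in the Guibi-tang step.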

How the results depend on the processing

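Of 101 genes examined singly, which are called genes and HMOX1, no called value reversed. The HMOX1 estimate, not called in any fit, was -0.01 without replicate 3 of 100 µg/mL. RLE scaling lost 0 of their calls, no filter 9, DESeq2 3, the class covariate 5 and the compared groups alone 51. With a replicate block the compared groups alone lost 13. Leaving out 1 library lost 17 to 25, and replicates 1 and 3 alone lost 40. The number called in the step of 500 against 100 µg/mL was 789. It was 783 with RLE scaling, 832 with no filter, 817 with DESeq2, 936 with the class covariate, 171 with the groups compared alone, 298 with replicates 1 and 3 (chosen after seeing the data) and 494 to 729 with 1 library left out, including 519 without replicate 2 of 100 µg/mL. The 13 calls of 100 against 20 µg/mL became 139 with no filter, 25 with DESeq2, 25 with the class covariate, 7 with replicates 1 and 3, and 6 to 23 with 1 library left out. With only those groups edgeR called 0, with 507 genes at an unadjusted p under 0.05. The 58 differences from Saengmaek-san became 341 with no filter, 128 with DESeq2, 4 with the groups compared alone, 22 with replicates 1 and 3, and 22 to 80 with 1 library left out. The 39 differences from Soyo-san became 165, 98, 77 with the class covariate, 19 with the groups compared alone, and 26 to 61 with 1 library left out. The cause of these shifts was not tested. Libraries of the same replicate number at 500 and 100 µg/mL correlated in their deviations from the group means. The values were 0.349, 0.0631 and 0.318 for numbers 1, 2 and 3. Number 2 is the one whose libraries lie in different MALAT1 classes at these doses. The main fit did not pair the libraries by replicate number. A replicate block set inside each first code number gave 1052, 33, 111 and 106 calls for the 4 comparisons, and a block with only the groups compared gave 639, 0, 89 and 41, the 0 with 860 genes at an unadjusted p under 0.05. With 3 libraries a dose, small changes may be missed, above all in genes under 1 CPM.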
